A study of Homo sapiens with 13 samples.

Results

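The genes of the proteasome, the protease that degrades ubiquitin-tagged proteins, were followed in human mammary MCF10A cells. They were taken from the deposited gene tables by name, as coding rows whose symbol begins with PSMA to PSMG followed by a digit. Of 38369 rows, 63 matched. Among these, 14 are copies of PSMB8 or PSMB9 on alternate haplotypes of the major histocompatibility complex, and they held no fragment in any library. The other 49 rows are 48 proteasome genes and PSMC3IP, a meiotic recombination factor that binds PSMC3 and is not part of the proteasome, which was counted apart. Of the 48 genes, 46 passed the filter on low values in each experiment. PSMA8 and PSMB11, the subunits of the testis and thymus proteasomes, did not pass, with at most 0.0241 FPKM in any library (fragments relative to library size and transcript length, the authors' unit of level per length). The rows of PSMA1, PSMA2, PSMA6, PSMB10 and PSMD13 also carry the symbol of another gene (COPB1, C7orf25, KIAA0391, CTRL and S11, in that order), so fragments of these neighbours cannot be told apart from theirs.

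PolyA RNA had been sequenced in 2 experiments. In the first, parental MCF10A cells transduced with LINC00520, a long intergenic RNA, were harvested after 72 h (2 libraries) and set against untransduced parental MCF10A cells (3 libraries), which another field of the labels calls mock transduced. In the second, MCF10A-Src cells, in which tamoxifen switches on a Src kinase, were taken at 0 h (1 library), 4 h (2 libraries), 12 h (1 library) and 36 h (2 libraries) of tamoxifen. MCF10A is an established, non-tumorigenic breast epithelial line, although the labels give its cell type as breast cancer, and all cells were grown with horse serum, EGF, insulin, hydrocortisone and cholera toxin. Libraries transduced with a control lincRNA were not analysed here, so transduction as such and the LINC00520 transcript cannot be told apart. The labels do not say whether replicates are separate cultures, and p-values then reflect only how far these libraries differ, possibly for technical reasons.

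Depth was 12.6 to 52.3 M fragments per library. The LINC00520 row held 1122 and 1031 fragments in LINC00520 libraries, against 5, 6 and 2 in untransduced libraries. In the time course it held 91 fragments at 0 h, 30 and 22 at 4 h, 415 at 12 h, and 3346 and 2124 at 36 h. All 11 epithelial markers reached 1 FPKM in every group. Of 11 immune and blood markers, 8 were below 0.1 FPKM in every library of the first experiment and 6 in every library of the second. In the time course the summed level of the immune list was 10.3 FPKM at 0 h, 13.3 and 14.9 at 4 h, 17.7 at 12 h, and 45.4 and 66.0 at 36 h. CD14 and CD68 alone reached 1 FPKM, and the T and B cell markers CD3E, CD3D and MS4A1 were at 0 or close to it. The fibroblast list summed to 18.4 FPKM at 0 h, 19.4 and 21.9 at 4 h, 30.8 at 12 h, and 59.5 and 79.0 at 36 h, almost all of it DCN. Of the 4 h libraries, replicate 2 stood above replicate 1 for 37 of the 46 proteasome genes, by a median log2 difference of 0.30, against 0.00 over all 15572 genes tested.

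The proteasome has a barrel-shaped 20S core of alpha and beta rings. Of its beta subunits, PSMB5, PSMB6 and PSMB7 carry the protease sites. The 19S regulatory particle binds ubiquitin chains and feeds unfolded substrates into the core with its ATPases. Other caps, the PA28 activators (PSME1 to PSME3) and PA200 (PSME4), open the core without ubiquitin. Under interferon, PSMB8, PSMB9 and PSMB10 replace PSMB5, PSMB6 and PSMB7 in newly built cores, which gives the immunoproteasome, whose cuts suit the peptides that class I molecules present.

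Promoter windows were printed for the immunoproteasome genes and for the 3 genes with the steepest falls at 36 h of tamoxifen relative to 4 h. Each covers 250 bases before to 50 bases after a RefSeq start in GRCh38.p14, on the gene's own strand; a RefSeq window was found for 43 of the 49 rows. PSMB8 has 2 starts, and the window of its first start, which is not printed, holds none of the motifs searched. Capitals mark matches, on either strand, to the interferon regulatory factor core (GAAA, any 2 letters, GAAA; 3.57% of all 35116 windows hold one), the antioxidant response core TGACNNNGC (13.3%), the E-box CACGTG (7.26%) and the STAT core TTCNNNGAA (7.66%). The windows lie at chr6:32843998-32844297 (PSMB8, second start, minus strand), chr6:32853942-32854241 (PSMB9, plus), chr16:67936801-67937100 (PSMB10, minus), chr17:42833147-42833446 (PSME3, plus), chr19:39970915-39971214 (PSMC4, plus) and chr21:39183402-39183701 (PSMG1, minus).
PSMB8: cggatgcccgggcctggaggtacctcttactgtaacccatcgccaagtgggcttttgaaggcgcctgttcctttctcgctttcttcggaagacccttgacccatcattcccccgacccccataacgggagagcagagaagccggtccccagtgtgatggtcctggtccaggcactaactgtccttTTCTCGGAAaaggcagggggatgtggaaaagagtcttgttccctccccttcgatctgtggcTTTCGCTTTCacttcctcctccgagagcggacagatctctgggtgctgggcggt
PSMB9: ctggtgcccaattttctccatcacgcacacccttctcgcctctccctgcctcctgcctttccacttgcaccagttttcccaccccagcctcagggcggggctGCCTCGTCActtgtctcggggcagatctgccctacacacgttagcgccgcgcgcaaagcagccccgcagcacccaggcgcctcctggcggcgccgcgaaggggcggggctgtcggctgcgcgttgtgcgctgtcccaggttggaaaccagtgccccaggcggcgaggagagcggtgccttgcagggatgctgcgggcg
PSMB10: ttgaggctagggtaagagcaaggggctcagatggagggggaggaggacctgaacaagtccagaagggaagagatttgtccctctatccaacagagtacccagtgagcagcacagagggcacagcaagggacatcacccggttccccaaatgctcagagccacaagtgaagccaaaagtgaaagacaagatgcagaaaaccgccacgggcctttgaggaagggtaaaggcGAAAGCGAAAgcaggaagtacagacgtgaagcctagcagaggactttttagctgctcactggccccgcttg
PSME3: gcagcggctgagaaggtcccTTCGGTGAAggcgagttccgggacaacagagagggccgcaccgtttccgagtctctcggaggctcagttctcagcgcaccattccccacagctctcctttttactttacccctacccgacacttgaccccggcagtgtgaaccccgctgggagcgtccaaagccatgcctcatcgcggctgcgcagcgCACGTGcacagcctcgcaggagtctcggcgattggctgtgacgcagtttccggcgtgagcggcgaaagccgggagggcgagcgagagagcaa
PSMC4: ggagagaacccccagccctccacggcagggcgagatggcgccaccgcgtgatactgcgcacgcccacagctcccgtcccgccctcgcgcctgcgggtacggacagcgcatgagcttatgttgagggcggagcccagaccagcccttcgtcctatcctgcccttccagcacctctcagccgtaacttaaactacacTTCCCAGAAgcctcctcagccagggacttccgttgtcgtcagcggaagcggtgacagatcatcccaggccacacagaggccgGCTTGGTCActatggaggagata
PSMG1: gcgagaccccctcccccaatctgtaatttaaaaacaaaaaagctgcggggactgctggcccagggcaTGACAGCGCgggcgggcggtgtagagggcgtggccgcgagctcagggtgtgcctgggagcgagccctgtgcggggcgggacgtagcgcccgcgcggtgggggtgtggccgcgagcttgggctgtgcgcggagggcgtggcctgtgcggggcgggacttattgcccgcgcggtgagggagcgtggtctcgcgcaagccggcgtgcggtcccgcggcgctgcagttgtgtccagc
The interferon regulatory factor core was found in windows of 7 of the 43 matched genes: PSMA4, PSMB4, PSMB8, PSMB10, PSME1, PSME2 and PSMG4. TGACNNNGC was found in windows of 15, among them PSMB9, PSMC4 and PSMG1. TTCNNNGAA was found for 8 genes and CACGTG for 3, PSME3 being in each set. The shares given above are per window, and the 43 genes have 53 windows. Of these, 7 held the interferon regulatory factor core, 15 TGACNNNGC, 8 TTCNNNGAA and 3 CACGTG. A match describes the letters of a window and is not evidence of a bound site.

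In parental MCF10A cells the immunoproteasome subunits were the lesser partners of each pair, and none of the 3 passed the test with LINC00520. PSMB8, which takes the place of PSMB5, had 42.6 and 41.0 FPKM in LINC00520 libraries, against 42.7, 40.5 and 42.4 FPKM in untransduced libraries. PSMB9, which takes the place of PSMB6, had 2.69 and 3.11 FPKM in LINC00520 libraries, against 3.53, 3.47 and 2.98 FPKM in untransduced libraries. The groups overlapped for both genes. The log2 difference was 0.02 (SE 0.0481, adjusted p = 0.803) for PSMB8 and -0.22 (SE 0.159, adjusted p = 0.27) for PSMB9 in edgeR's quasi-likelihood test with Benjamini-Hochberg adjustment.

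PSMB8 made up 22.0% and 20.6% of the summed FPKM of PSMB8 and PSMB5 in LINC00520 libraries, against 21.1%, 21.1% and 21.4% in untransduced libraries. PSMB9 made up 1.93% and 2.34% of its pair with PSMB6 in LINC00520 libraries, against 2.42%, 2.44% and 2.08%. PSMB8 thus held a larger share of its pair than PSMB9 in all 5 libraries. PSMB10, which takes the place of PSMB7, had 4.26 and 4.78 FPKM in LINC00520 libraries, against 3.95, 3.51 and 3.76 FPKM in untransduced libraries. These values did not overlap, but the difference missed the threshold (log2 0.16, SE 0.0679, adjusted p = 0.0547). The FPKM of PSMB10 is uncertain as a level, since its row is joined with CTRL and gave 4.47 CPM (fragments scaled to library size) for each FPKM, against 1.02 for PSMB8.

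**Figure D1:**
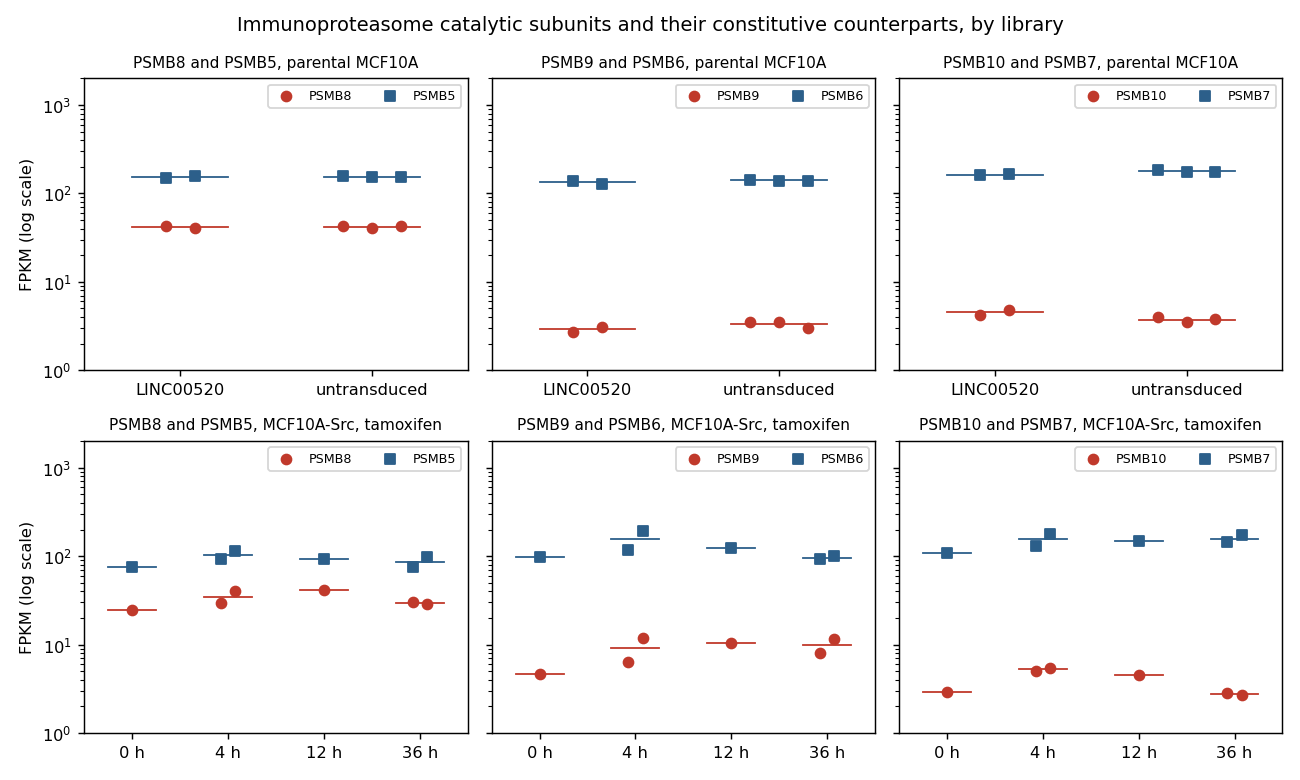
FPKM on a log axis of PSMB8, PSMB9 and PSMB10 (circles) and of PSMB5, PSMB6 and PSMB7 (squares) in each library, with group means as lines, for LINC00520 and untransduced parental cells (top) and over tamoxifen (bottom). PSMB9 lies between 2.69 and 3.53 FPKM in the top row and between 4.66 and 11.9 FPKM in the bottom row.

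Over tamoxifen, PSMB8 had 24.5 FPKM at 0 h, 29.5 and 40.2 at 4 h, 41.4 at 12 h, and 30.2 and 28.7 at 36 h. PSMB9 had 4.66 FPKM at 0 h, 6.42 and 11.9 at 4 h, 10.5 at 12 h, and 8.02 and 11.5 at 36 h. Every later library thus stood above the single 0 h library for both genes, with 4 h replicates far apart. Neither gene passed the edgeR test against 0 h at any time: for PSMB9 the log2 differences were 0.95 at 4 h (SE 0.389, adjusted p = 0.187), 1.20 at 12 h (SE 0.435, adjusted p = 0.188) and 1.01 at 36 h (SE 0.395, adjusted p = 0.112). The authors' deposited table called PSMB9 higher than at 0 h at all 3 times, with q-values of 0.022 at 4 h, 0.0102 at 12 h and 0.011 at 36 h. That table also called PSMB8 higher at 12 h (q = 0.0493).

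PSMB9 made up 4.54% of its pair with PSMB6 at 0 h, 5.15% and 5.88% at 4 h, 7.76% at 12 h, and 8.06% and 10.3% at 36 h. The share was higher in each 36 h library than in either 4 h library, a description with no test of its own. PSMB9 itself did not pass between these times (edgeR log2 0.07, SE 0.319, adjusted p = 0.891), and its libraries overlapped. PSMB6, the other part of the pair, was called lower at 36 h than at 4 h (edgeR log2 -0.67, adjusted p = 0.0471). That call was lost in 5 of 13 alternative settings. PSMB6 had 97.9 FPKM at 0 h, 118 and 191 at 4 h, 125 at 12 h, and 91.6 and 99.8 at 36 h. The part of either gene in the higher share was not tested. PSMB8 made up 24.4% of its pair at 0 h, 24.3% and 26.1% at 4 h, 30.7% at 12 h, and 28.5% and 22.7% at 36 h, so 4 h and 36 h overlapped. The summed immune markers were also highest at 36 h, as given above, and their part in these shares was not tested. TAP1, a peptide transporter gene that shares a promoter region with PSMB9, passed the test against 0 h at 12 h (log2 1.22, SE 0.237, adjusted p = 0.0282) and at 36 h (log2 0.99, SE 0.212, adjusted p = 0.0154).

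PSMB10 took another course. It had 12.3 CPM at 0 h, 21.7 and 23.6 at 4 h, 19 at 12 h, and 11.7 and 12.1 at 36 h. Both 36 h libraries lay below both 4 h libraries and close to the 0 h library. PSMB10 fell to a mean of 11.9 ± 0.288 CPM at 36 h, against 22.7 ± 1.38 CPM at 4 h (SD, n = 2 each; log2 -0.93, SE 0.185, adjusted p = 0.00622). Without 36 h replicate 1 the adjusted p was 0.0584.

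With LINC00520, genes of the 19S particle were higher by small amounts and those of the 20S core mostly did not pass the test. Of the 46 proteasome genes tested, 21 rose and 2 fell (edgeR, adjusted p under 0.05), which is 45.7% and 4.35%. Over all 12790 genes 25.2% were called higher and 24.8% lower. The median log2 difference of the 46 genes was 0.08, with a range of -0.24 to 0.35, and the median over all genes was 0.001. In the 19S particle 12 of 17 subunit genes rose and none fell, with a median of 0.15. Of the 14 constitutive genes of the 20S rings, 3 rose (PSMA4, PSMA5 and PSMB2) and 1 fell (PSMB7), with a median of 0.02. Replicates lay close together in this experiment, with a common coefficient of variation of 0.0249, against 0.162 in the time course.

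**Figure D2:**
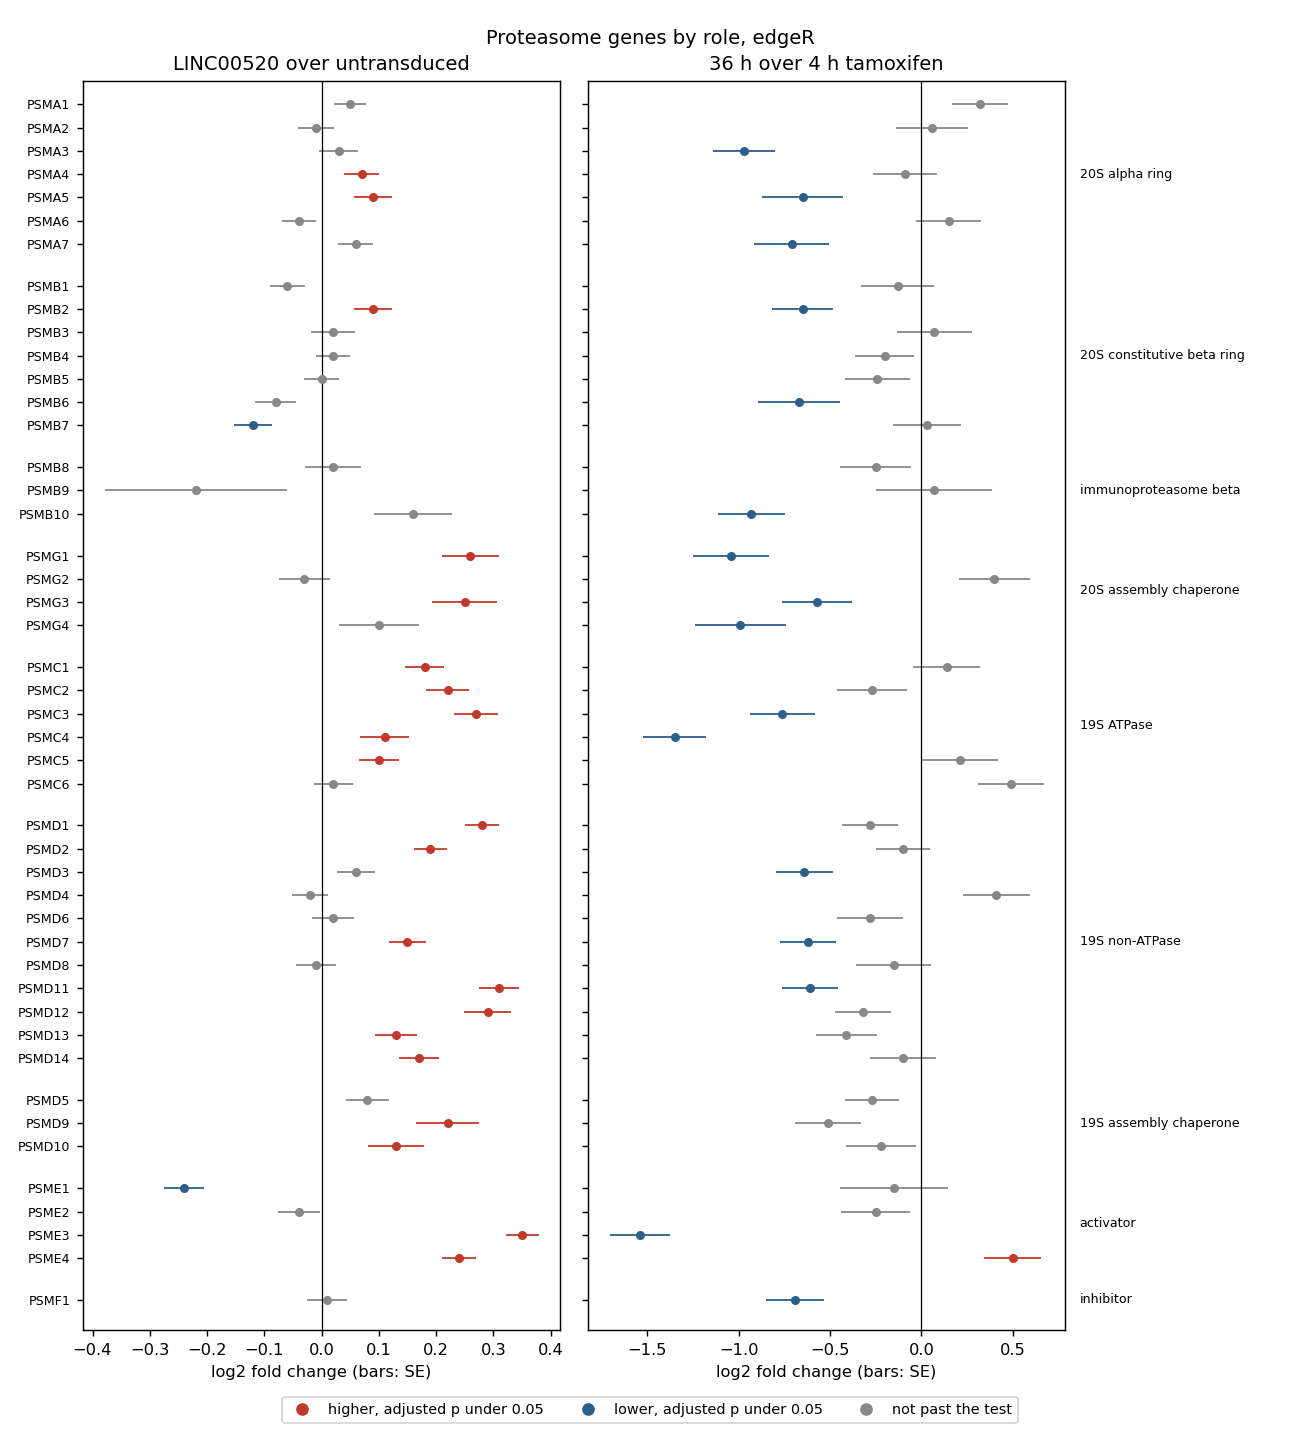
Log2 fold changes (points) with standard errors (bars) of the 46 proteasome genes tested, by role, for LINC00520 over untransduced cells (left) and 36 h over 4 h of tamoxifen (right); red and blue mark adjusted p under 0.05, grey the rest. The axes differ in scale: -0.24 to 0.35 spans the values on the left and -1.54 to 0.50 those on the right.

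Among the ATPases of the 19S base, 5 of 6 rose. PSMC3 had 139 and 142 CPM in LINC00520 libraries, against 124, 115 and 111 CPM in untransduced libraries. The log2 difference was 0.27 (SE 0.0383, adjusted p = 3.38e-06), and the groups did not overlap, as in every proteasome gene called here. PSMC2 and PSMC1 were higher by 0.22 and 0.18. PSMC6 had a log2 difference of 0.02 and did not pass. The call on PSMC4 (log2 0.11, adjusted p = 0.0397) was lost in 9 of 13 alternative settings, with adjusted p between 0.0293 and 0.27.

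Among the non-ATPase subunits 7 of 11 rose. PSMD11, a scaffold of the 19S lid, had 98.7 and 98.0 CPM in LINC00520 libraries, against 81.5, 79.4 and 77.6 CPM in untransduced libraries (log2 0.31, SE 0.0356, adjusted p = 1.4e-07). PSMD12, another lid subunit, had 101 and 96.7 CPM in LINC00520 libraries, against 83.0, 83.3 and 75.1 CPM in untransduced libraries (log2 0.29, SE 0.0413, adjusted p = 2.6e-06). PSMD1, the large base subunit on which a ubiquitin receptor docks, had 218 and 211 CPM in LINC00520 libraries, against 181, 175 and 176 CPM in untransduced libraries (log2 0.28, SE 0.0304, adjusted p = 5.95e-08). In all 3 genes the LINC00520 libraries stood above every untransduced library, as in every proteasome gene called higher here. Rows listed as RNAs antisense to these genes held 39.3% as many fragments as PSMD11 and 32.1% as many as PSMD12, and without a stated strand setting their reads cannot be told apart. PSMD4, the ubiquitin receptor Rpn10, and PSMD8 differed by -0.02 and -0.01 and did not pass.

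The difference between particles can be given library by library, which restates the same values and is not further support. The mean log2 CPM of the 17 19S genes minus that of the 14 20S genes was -0.325 and -0.303 in LINC00520 libraries, against -0.436, -0.460 and -0.460 in untransduced libraries. These values did not overlap. In the time course the same measure was -0.228 at 0 h, -0.238 and -0.382 at 4 h, -0.083 at 12 h, and -0.275 and -0.381 at 36 h, so 36 h and 4 h overlapped.

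**Figure D3:**
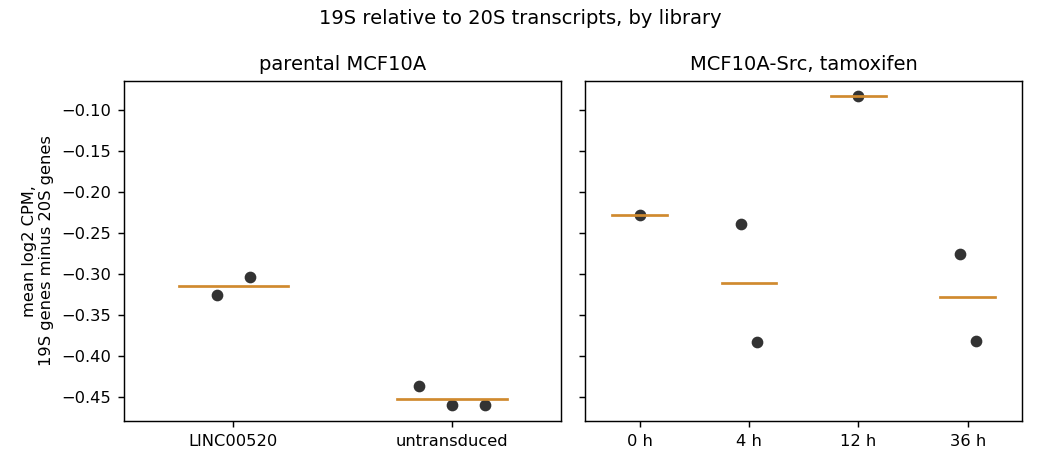
Mean log2 CPM of 17 19S genes minus that of 14 constitutive 20S genes in each library (points), with group means (lines). LINC00520 libraries sit at -0.325 and -0.303, above the untransduced libraries, and the 12 h library sits highest of the time course at -0.083.

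Of the chaperones, PSMG1 and PSMG3, which help build the alpha ring of new cores, rose by 0.26 (SE 0.0495, adjusted p = 0.000136) and 0.25 (SE 0.0564, adjusted p = 0.000706). PSMG1 had 73.0 and 63.7 CPM in LINC00520 libraries, against 57.2, 59.4 and 55.1 CPM in untransduced libraries. An antisense row held 35.5% as many fragments as PSMG1 in this experiment, so the share of its own reads is uncertain. The 19S chaperones PSMD9 and PSMD10 rose by 0.22 and 0.13, and PSMD5 (0.08) did not pass. PSMB7, the trypsin-like site of the constitutive core, fell, with 141 and 146 CPM in LINC00520 libraries, against 160, 153 and 155 CPM in untransduced libraries (log2 -0.12, SE 0.033, adjusted p = 0.00307). Without LINC00520 replicate 1 the adjusted p of PSMB7 was 0.0778. PSMB5 and PSMB6, the other 2 catalytic subunits, did not pass; PSMB6 differed by -0.08 (adjusted p = 0.0771).

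The activators split with LINC00520. PSME3, the nuclear PA28-gamma ring, had 241 and 243 CPM in LINC00520 libraries, against 192, 188 and 191 CPM in untransduced libraries. Its rise was the largest of the 46 genes (log2 0.35, SE 0.0288, adjusted p = 5.08e-10). PSME4, the single-chain cap PA200, had 219 and 218 CPM in LINC00520 libraries, against 185, 186 and 186 CPM in untransduced libraries (log2 0.24, SE 0.0289, adjusted p = 2.63e-07). PSME1, the alpha chain of the interferon-inducible PA28 ring, fell, with 93.0 and 93.9 CPM in LINC00520 libraries, against 111, 108 and 112 CPM in untransduced libraries (log2 -0.24, SE 0.0344, adjusted p = 3.18e-06). None of these 3 overlapped between groups, but neither did any other called gene, so this adds nothing to the calls. PSME2, the beta chain of the same ring, had 82.1 and 86.7 CPM in LINC00520 libraries, against 87.1, 86.3 and 86.2 CPM (log2 -0.04, adjusted p = 0.415), and the groups overlapped. PSMF1, an inhibitor that binds the ends of the core, had 116 and 120 CPM in LINC00520 libraries, against 121, 114 and 116 CPM (log2 0.01, adjusted p = 0.789). Outside the proteasome, PSMC3IP had 20.0 and 20.8 CPM in LINC00520 libraries, against 13.7, 13.6 and 13.7 CPM in untransduced libraries.

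At 36 h of tamoxifen many proteasome genes were lower than at 4 h, those for the activator PSME3 and the ATPase PSMC4 most. Of the 46 genes, 16 fell and 1 rose at 36 h relative to 4 h, which is 34.8% and 2.17%. Over all 15572 genes 20.5% were called lower and 18.8% higher. The median log2 difference of the 46 genes was -0.26, against -0.039 over all genes, but this shift rested on 1 library: the median was -0.02 without 4 h replicate 2 and -0.42 without 4 h replicate 1. The falls were spread over roles: 3 of 7 alpha genes, 2 of 7 constitutive beta genes, 2 of 6 ATPases, 3 of 11 non-ATPase genes and 3 of 4 core chaperones. The others were 1 of 4 activators (PSME3), 1 of 3 immunoproteasome subunits (PSMB10) and the inhibitor PSMF1. In bulk RNA, fewer cells of a kind and less RNA per cell cannot be told apart.

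The count changed with the library left out. Each such fit keeps 1 library in a group and takes its spread from the other pair alone, so levels and spread both change. Replicates differed more at 4 h than at 36 h, with a median chi-square per degree of freedom of 5.50 and 1.96. Without 36 h replicate 1, 4 genes were called lower, and without 36 h replicate 2, 6 were. Without 4 h replicate 1, the replicate with the lower proteasome levels, 22 were called lower and 1 higher; without 4 h replicate 2, 13 were called lower and 7 higher. PSME3, PSMC4, PSMA3 and PSMG1 were called lower in all of these and in each of 13 alternative settings. When counts were scaled by library totals alone, the median of all genes moved to -0.294 and that of the 46 genes to -0.51. There 22 of the 46 were called lower, and the share of all genes called was not taken. The immune and fibroblast marker sums were higher at 36 h than at 4 h, as given above, and their part in the falls was not tested.

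PSME3 had 57.1 and 46.6 CPM at 36 h, against 155 and 148 CPM at 4 h. It stood at 107 CPM at 0 h and 152 CPM at 12 h, so the 36 h libraries lay below all others. The log2 difference from 4 h was -1.54 (SE 0.166, adjusted p = 0.000411), and its antisense row held 7.13% as many fragments. PSMC4, the ATPase Rpt3, had 28.7 and 28.0 CPM at 36 h, against 65.2 and 79.5 CPM at 4 h (log2 -1.35, SE 0.172, adjusted p = 0.000888). It stood at 41.3 CPM at 0 h and 80.7 CPM at 12 h. In both genes the 4 h and 12 h libraries were high and the 36 h libraries low, with the 0 h library between them.

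PSMG1 had 15.9 and 14 CPM at 36 h, against 26.4 and 35.3 CPM at 4 h (log2 -1.04, SE 0.207, adjusted p = 0.0062). An antisense row held 225% as many fragments as PSMG1 in the time course, so the share of its own reads in this value is uncertain. PSMA3, an alpha ring subunit, had 18.2 and 20.3 CPM at 36 h, against 36.6 and 38.7 CPM at 4 h (log2 -0.97, SE 0.171, adjusted p = 0.00366). Its level at 0 h, 35.3 CPM, and at 12 h, 38.3 CPM, lay beside those at 4 h, so only the 36 h libraries stood apart. PSMG4, another core chaperone, fell by 0.99 on the log2 scale, with an antisense row holding 307% of its fragments.

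**Figure D4:**
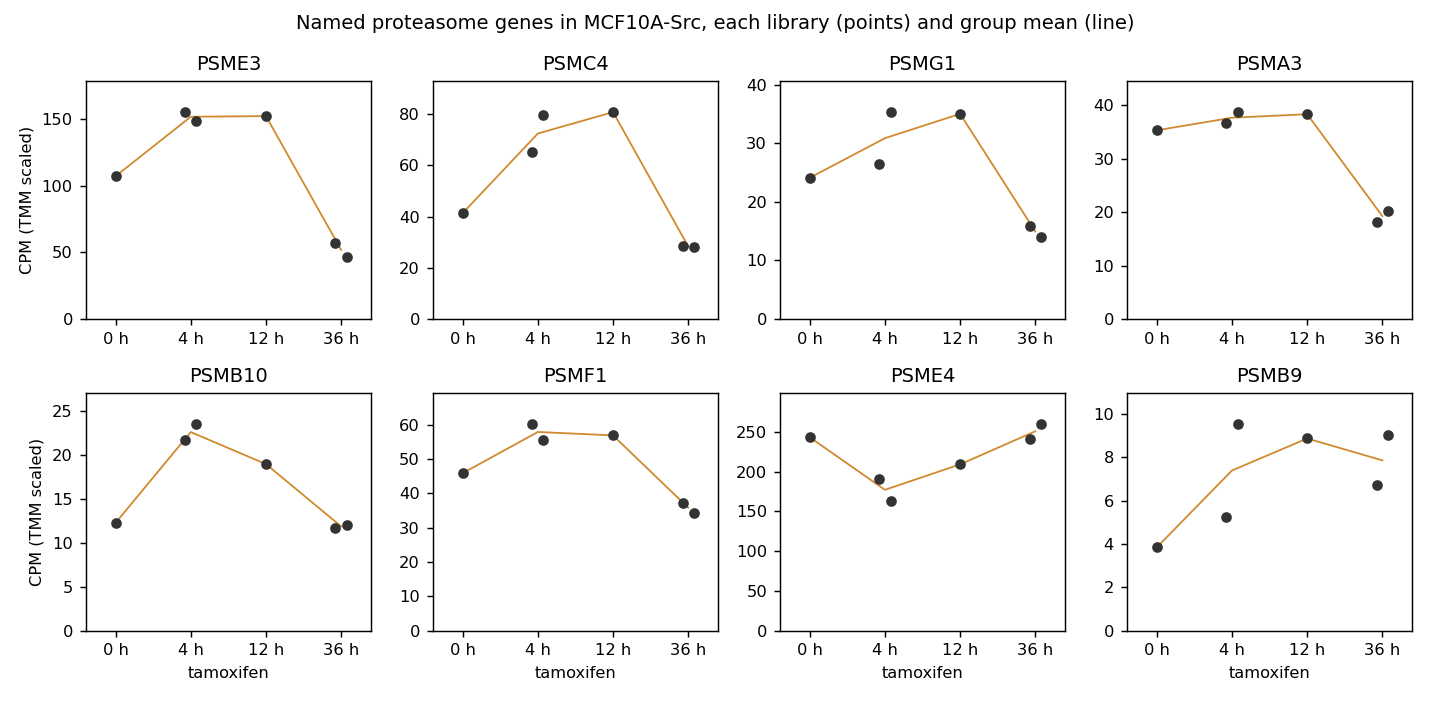
CPM of 8 proteasome genes in each MCF10A-Src library (points) over hours of tamoxifen, with group means joined by lines. PSME3, PSMC4, PSMG1 and PSMA3 have their lowest values in the 36 h libraries, and PSME4 its lowest, 163 CPM, in a 4 h library.

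PSMC3 had 44.6 and 52.0 CPM at 36 h, against 72.8 and 90.2 CPM at 4 h (log2 -0.76, SE 0.178, adjusted p = 0.0122). PSMF1 had 37.3 and 34.4 CPM at 36 h, against 60.3 and 55.5 CPM at 4 h (log2 -0.69, SE 0.16, adjusted p = 0.0115). PSMD11 had 43.3 and 44.4 CPM at 36 h, against 68.4 and 65.0 CPM at 4 h (log2 -0.61, SE 0.152, adjusted p = 0.0161), with an antisense row holding 21.7% as many fragments. None of these 3 genes overlapped between the times, as held for every proteasome gene called here. Each lost its call without 36 h replicate 1, and PSMF1 and PSMD11 also without 36 h replicate 2. With limma on log2(FPKM + 0.1) PSMC3 lost it too. PSMB6, the caspase-like site, had 55.2 and 55.4 CPM at 36 h, against 67.9 and 108 CPM at 4 h (log2 -0.67, SE 0.225, adjusted p = 0.0471), a call lost in 5 of 13 alternative settings. The other 6 that fell, PSMA5, PSMA7, PSMB2, PSMD3, PSMD7 and PSMG3, did so by 0.57 to 0.71 on the log2 scale. Their adjusted p in edgeR lay between 0.0143 (PSMD7) and 0.049 (PSMG3), with PSMA5 at 0.0486. The 4 h replicates were far apart for PSMA5 (73.6 and 114 CPM) and PSMA7 (108 and 158 CPM).

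PSME4 alone rose. It had 241 and 260 CPM at 36 h, against 191 and 163 CPM at 4 h (log2 0.50, SE 0.156, adjusted p = 0.0353). The call was lost in 6 of 13 alternative settings, among them without either 36 h library, with adjusted p between 0.00559 and 0.247. At 0 h PSME4 had 243 CPM, beside the 36 h values. PSME1 had 61.6 and 30.6 CPM at 36 h, against 48.5 and 54.4 CPM at 4 h, its 36 h libraries lying on either side of both. PSME2 had 59.9 and 58.5 CPM at 36 h, against 59.5 and 81.0 CPM at 4 h (log2 -0.25, adjusted p = 0.328).

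Against the single 0 h library no proteasome gene passed the test at 4 h or 12 h, although most values were above 0. At 4 h, 43 of the 46 log2 differences were positive, with a median of 0.32, against 0.006 over all genes; 3.15% of all genes were called higher and 3.09% lower. Without 4 h replicate 2 the median of the 46 was 0.16, and without 4 h replicate 1 it was 0.43. At 12 h, 40 were positive, with a median of 0.38, against -0.027 over all genes; 3.04% of all genes were called higher and 1.2% lower. At an unadjusted p under 0.05, edgeR gave 8 higher and 1 lower at 4 h and 11 higher at 12 h. DESeq2 called 2 genes higher at 4 h and 1 at 12 h, and limma called 0 at either time. Shares of all genes at the unadjusted threshold, or with DESeq2 and limma, were not taken, so these counts cannot be set against them. With single libraries at 0 h and 12 h, their spread was taken from the 4 h and 36 h pairs, and all comparisons with 0 h share that library.

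At 4 h the differences nearest the threshold were PSMB10 (log2 0.88, SE 0.224, adjusted p = 0.0603) and PSMC4 (log2 0.81, SE 0.21, adjusted p = 0.0632). At 12 h PSMC4 was nearest (log2 0.97, SE 0.236, adjusted p = 0.0689). Without 4 h replicate 1, 14 genes were called higher and 1 lower at 4 h; without 4 h replicate 2, 2 were called higher. Leaving out either 4 h library also raised the number called at 12 h, although the 12 h and 0 h libraries themselves were unchanged. The spread then came from the 36 h pair alone, and the shares of all genes called were not taken. The authors' deposited table called 6 members higher at 4 h (PSMA5, PSMA7, PSMB6, PSMB9, PSMC4 and PSMD8) and 5 at 12 h (PSMB8, PSMB9, PSMC1, PSMC4 and PSMD8), with 8.97% and 7.01% of its rows called.

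Relative to 0 h, PSME3 and PSMA3 fell at 36 h and no proteasome gene rose; over all genes 9.36% were called lower and 9.99% higher. PSME3 had 57.1 and 46.6 CPM at 36 h, against 107 CPM at 0 h (log2 -1.04, SE 0.193, adjusted p = 0.00858). PSMA3 had 18.2 and 20.3 CPM at 36 h, against 35.3 CPM at 0 h (log2 -0.88, SE 0.199, adjusted p = 0.0198). PSME3 lost its call without 36 h replicate 2, and PSMA3 without either 36 h library and with limma. The median of the 46 genes was 0.00, against -0.077 over all genes, and 23 were above 0. PSMD4 had the highest value of the 19S genes (log2 0.62, SE 0.231, adjusted p = 0.0986). With library totals the median of all genes moved to -0.429 and that of the 46 genes to -0.35. There 14 members were called lower, and the share of all genes called was not taken. Without 4 h replicate 1, 5 were called higher and 7 lower, and without 4 h replicate 2, 5 and 5.

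The experiments share no library, so their calls could be set side by side. Of the 21 genes that rose with LINC00520, 9 fell at 36 h relative to 4 h: PSMA5, PSMB2, PSMC3, PSMC4, PSMD7, PSMD11, PSME3, PSMG1 and PSMG3. That is 42.9% of the 21 and 56.2% of the 16 that fell at 36 h. Over the 12352 genes tested in both experiments, 1012 were called in this pair of directions, 32.0% of those higher with LINC00520 and 35.3% of those lower at 36 h. PSME4 was higher in both. PSME3 had the largest rise of the 46 genes in the first experiment and the largest fall in the second.

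**Figure D5:**
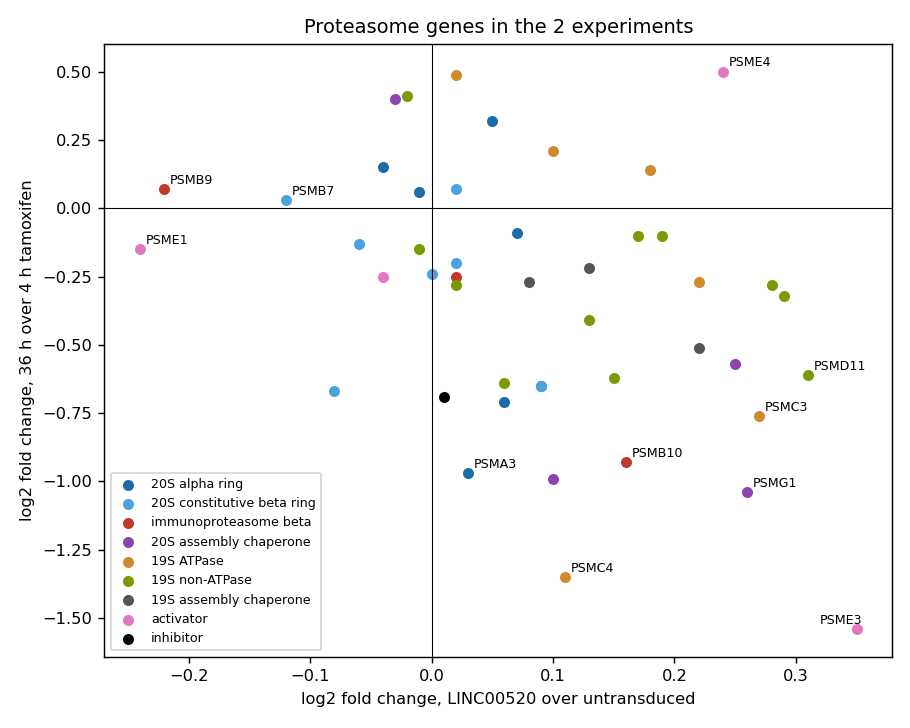
Log2 fold change of each of the 46 proteasome genes at 36 h over 4 h of tamoxifen (vertical) against that with LINC00520 over untransduced (horizontal), coloured by role, with 11 genes named. PSME3 sits at the lower right (0.35 and -1.54) and PSME4 at the upper right (0.24 and 0.50).

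Partners of the proteasome moved in both directions. With LINC00520, 8 of 20 partners and regulators rose and 5 fell, which is 40.0% and 25%, against 25.2% and 24.8% over all genes, so the share that fell was close to that of all genes. The deubiquitinases of the 19S particle, UCHL5 (log2 0.34) and USP14 (0.31), rose, and NFE2L2, a transcription factor of antioxidant genes, fell (-0.19). Of the same 20, 1 rose and 5 fell at 36 h relative to 4 h, which is 5% and 25%. Over all genes 18.8% were called higher and 20.5% lower there, so the share that fell was close to that of all genes. The ubiquitin receptor ADRM1 fell by 1.21 and the 19S-bound thioredoxin TXNL1 by 0.70 on the log2 scale. SHFM1, the small 19S subunit, rose by 0.80. None of the 20 passed against 0 h at any time. Over all genes 3.15% were called higher and 3.09% lower at 4 h. The shares were 3.04% and 1.2% at 12 h, and 9.99% and 9.36% at 36 h.

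Of 9 tested genes for ubiquitin supply and the p97 segregase, 5 rose (55.6%) and 3 fell (33.3%) with LINC00520, against 25.2% and 24.8% over all genes. Among them were p97 itself (VCP, log2 0.18), the activating enzyme UBA6 (0.19) and RPS27A (-0.16), a gene for ubiquitin fused to a ribosomal protein. In the time course 4 rose (44.4%, against 18.8% over all genes) and none fell at 36 h relative to 4 h, among them UFD1L, a p97 cofactor, by 1.19, UBA6 by 1.07 and RPS27A by 0.71. Relative to 0 h, 4 rose at 36 h as well (44.4%, against 9.99% over all genes), UFD1L by 1.56. The other 5 did not pass at 36 h relative to 4 h, VCP with a log2 difference of -0.41.

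Of 15 tested genes of class I antigen processing (HLA-B and HLA-C share a row), 2 rose and 4 fell with LINC00520, which is 13.3% and 26.7%, below and close to the shares over all genes (25.2% higher and 24.8% lower). TAP2, a chain of the peptide transporter, rose by 0.33, and tapasin (TAPBP) and HLA-E fell by 0.32 and 0.16. Between 36 h and 4 h, 4 rose (26.7%) and 2 fell (13.3%), against 18.8% and 20.5% over all genes. B2M differed by 0.94, HLA-E by 0.88 and the class I transactivator NLRC5 by -1.88. Between 36 h and 0 h, 8 rose (53.3%, against 9.99% over all genes) and none fell, HLA-E by 1.44 and B2M by 1.12. No immunoproteasome gene was called in that comparison.

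Genes of interferon signalling, the pathway that induces the immunoproteasome, were called in both directions with LINC00520: of 8 tested, 4 fell and 1 rose, which is 50% and 12.5%, against 24.8% and 25.2% over all genes. The receptor chains IFNGR1 and IFNGR2 fell by 0.40 and 0.27, and the transcription factor IRF1 by 0.45 on the log2 scale. In the time course IRF1 had 2.90 FPKM at 0 h, 10.6 and 8.01 at 4 h, 7.87 at 12 h, and 2.33 and 1.80 at 36 h. It rose at 4 h (log2 1.42, adjusted p = 0.0229) and 12 h (1.41, adjusted p = 0.0368) relative to 0 h and fell at 36 h relative to 4 h (-1.74, adjusted p = 0.000858). PSMB10 was likewise highest at 4 h and close to its 0 h level at 36 h, whereas PSMB9 at 36 h was above its 0 h level in both libraries. Of the 9 genes tested in the time course, 3 rose (33.3%), among them JAK2 by 0.87, and 2 fell (22.2%) at 36 h relative to 4 h. Over all genes 18.8% were called higher and 20.5% lower there, so the share that fell was close to that of all genes. Relative to 0 h, 4 rose at 36 h (44.4%, against 9.99% over all genes) and none fell. SOCS1, an inhibitor of the pathway called higher at 12 h and 36 h, held only 3 fragments at 0 h, against 48 at 12 h.

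The authors' deposited table called fewer members than edgeR in the first experiment. With LINC00520 it listed 4 as higher (PSMC3, PSMD11, PSMD12 and PSME3) and none as lower, with 12.9% of its tested rows called. For 36 h relative to 4 h it listed 2 as higher and 13 as lower, with 28.1% of rows called. All 4 of its calls with LINC00520 were among the 21 genes given above.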

How the data were processed

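PolyA RNA of 11 libraries was used: 2 LINC00520, 3 untransduced and 6 MCF10A-Src libraries. Base calling with CASAVA 1.4, TopHat, Cuffdiff and the hg19 build are named in the submitters' processing notes; the sources used here give no annotation, strand setting or other version. Per the file headers, the authors' tables hold an estimated count of fragments per gene and library and FPKM as deposited. Per the file headers, the authors' Cuffdiff calls came deposited with p-value, q-value and log2 fold change columns. In the time-course table the deposited fold change column exceeds any log2 range; per the file headers the authors made it as a log2 fold change between conditions, but as deposited it is a score of unknown scale, and only its direction served.

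Columns were matched to samples by name. The 2 control lincRNA samples matched no column and were not analysed here, and 7 libraries that match no label were not used. Replicate numbers are those of the tables, counted from 1, and only name libraries.

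Estimated counts were rounded and tested with edgeR 4.0.16 in R 4.3.3 (TMM scaling, glmQLFit, glmQLFTest, 1 coefficient per group, 2-sided, Benjamini-Hochberg over all genes, adjusted p under 0.05). Genes needed an FPKM of at least 1 in 2 libraries (over-expression) or in 1 (time course), with OK as their Cuffdiff status, which left 12790 and 15572 genes. Replicates varied with a common coefficient of 0.0249 and 0.162, on 3 and 2 residual degrees of freedom. SE is the absolute log2 fold change over the square root of F. On simulated data the same fit recovered 97% of genes changed 1.5-fold with LINC00520 and 7% (1.5-fold) and 55% (2-fold) at 36 h relative to 4 h. The simulation gave every gene the common spread and changed only well-covered genes. Smaller changes were not simulated, and the largest of the proteasome genes with LINC00520 was 1.27-fold (PSME3). No comparison with 0 h was simulated. Between replicates, the median chi-square of a gene's counts per degree of freedom was 0.754 for LINC00520, 1.13 for untransduced, 5.50 for 4 h and 1.96 for 36 h libraries. Values near 1 leave little beyond counting noise, so for the first experiment this cannot tell separate cultures from technical repeats. Each library was counted as a replicate.

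Genes with values in every library were the immunoproteasome subunits and their counterparts, the activators, PSMF1 and, per comparison and direction, the 4 other called members with the smallest p. Up to 3 called genes of each of 4 lists of related genes were named; others that the text names were chosen after their values were seen. The members and lists were chosen with earlier results of these data known. Alternatives were DESeq2 1.42.0, limma 3.58.1 on log2(FPKM + 1) and log2(FPKM + 0.1), other scaling and filters, a replicate block and leaving out each replicate.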

Additional observations from a re-analysis of the deposited data

How the results depend on the processing

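With LINC00520, 21 genes were higher in the main test, 15 with DESeq2 and 18 with limma on log2(FPKM + 1). In that comparison 2 genes were lower in the main test and 4 with an FPKM minimum of 5. At 36 h relative to 4 h, 16 genes were lower in the main test, 15 with DESeq2 and 13 with limma on log2(FPKM + 1). At 36 h relative to 4 h, 1 gene was higher; DESeq2, an FPKM minimum of 5 and the replicate block gave 2, and limma with either pseudocount, library totals and no filter gave 0. At 4 h relative to 0 h, where the main test called 0 higher, DESeq2 called 2 and no filter 6. At 12 h relative to 0 h, likewise with 0, DESeq2 called 1, no filter 3 and an FPKM minimum of 5 gave 1. At 36 h relative to 0 h, no filter gave 2 higher, and against 2 lower in the main test limma gave 1 with either pseudocount, library totals 14 and an FPKM minimum of 5 gave 4. The shares of all genes called under these settings were not taken, and the cause was not tested.

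Leaving out each replicate gave 16 to 23 genes higher and 2 to 2 lower with LINC00520; 0 to 7 higher and 4 to 22 lower at 36 h relative to 4 h; 0 to 14 higher and 0 to 1 lower at 4 h relative to 0 h; 0 to 11 higher and 0 to 0 lower at 12 h relative to 0 h; and 0 to 5 higher and 0 to 7 lower at 36 h relative to 0 h. In the time course each such fit keeps 1 library in a group and takes its spread from the other pair alone. The shares of all genes called in these fits were not taken. No value changed direction while called. Of 1114 recomputed values of named genes, 1022 kept their side of the threshold, 59 crossed to called and 33 lost the call. Without the rows shared with another symbol, an alternative chosen after seeing the data, 20 were higher with LINC00520 and 15 lower at 36 h relative to 4 h.

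Libraries with the same replicate number did not deviate together with LINC00520 (correlations -0.057 and -0.047); in the time course the correlation of 0.102 rests on 2 pairs that are tied by construction, so the numbers were not taken to pair libraries. With the replicate block the counts were 16 higher and 2 lower with LINC00520, and 2 and 15 at 36 h relative to 4 h. They were 0 and 0 at 4 h and at 12 h relative to 0 h, and 0 and 2 at 36 h relative to 0 h. The shares of all genes called with the block were not taken.

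The time course rests on 1 library at 0 h and at 12 h and on pairs elsewhere. The self-test, which simulated only 36 h relative to 4 h there, recovered few changes of 1.5-fold. Calls of 0 at 4 h and 12 h therefore do not show that levels were alike.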
